A study of Mus musculus with 6 samples.

Results

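The testis-specific serine kinases Tssk1, Tssk2, Tssk3, Tssk4 and Tssk6 were taken by symbol from a table of raw read counts, and all 5 were found, 1 row each, among 54100 genes. The libraries came from cryosections of mouse testis. There were 3 from wild-type animals (WT) and 3 from animals with an H3t deletion, called the deletion below. H3t is a testis form of histone H3. The series studies Leydig cells in testes where spermatogenesis is disrupted. Each library carries a mouse number of its own. The sources used here state no age, strain or allele design. As a check of the labels, H3f4, the current symbol of H3t, was counted 390, 571 and 356 times in the WT libraries and 0 times in each deletion library.

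Testis-specific serine kinases (TSSKs) form a small branch of the calmodulin kinase group and are related to the AMP-activated protein kinase (AMPK) family. They are made in spermatids, the haploid cells that form after meiosis, and act while the sperm head and tail take shape. Male mice that lack Tssk1 and Tssk2 together, or Tssk6, are infertile. An early description placed mouse Tssk3 in Leydig cells, and later work placed it in germ cells.

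The sequences of the 2 neighbouring kinases are shown first, because they bear on how far the counts of Tssk1 and Tssk2 can be told apart. Tssk1 (ENSMUSG00000041566, GRCm38 chr16:17894223-17897922) and Tssk2 (ENSMUSG00000045521, chr16:17898637-17900024) each have 1 exon on the plus strand and lie 714 bases apart. Their coding sequences were 82.0% identical over 1048 aligned bases, against 61.4% to 66.9% for every other pair among the 6 Tssk genes of the annotation. The longest run of coding bases they share is 113 bases long and covers coding bases 371 to 483 in both, counted from the A of the start codon. In the other pairs the longest shared run was 9 to 14 bases. It is given here in full, in lower case because no base in it differs.
Tssk1 and Tssk2, shared coding run: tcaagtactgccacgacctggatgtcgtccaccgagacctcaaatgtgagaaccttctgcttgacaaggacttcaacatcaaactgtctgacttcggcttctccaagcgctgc
Of all 50-base stretches, 9.34% of those in Tssk2 and 3.42% of those in Tssk1 also occurred in the other gene. A read that lies wholly within such a stretch, with no mate outside it, cannot be assigned to 1 of the 2. Most of the transcript of each is distinct. Tssk3, Tssk4 and Tssk6 shared 0% with any other gene on the same strand.

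The bases just before the RefSeq start site of Tssk1 and Tssk2 (GRCm38.p6, plus strand) also resembled each other. They are shown because both hold TGACTTCA or its reverse complement TGAAGTCA, printed in capitals, an element that differs by 1 base from the cAMP response element bound by the spermatid factor CREM. Each stretch ends at the base before the start site and begins where the nearest annotated exon ends.
Tssk1, chr16:17894146-17894202: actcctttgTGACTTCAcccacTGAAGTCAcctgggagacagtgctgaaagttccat
Tssk2, chr16:17898563-17898636: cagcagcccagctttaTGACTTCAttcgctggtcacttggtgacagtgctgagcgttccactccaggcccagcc
This element was picked after the sequences had been seen. It occurred on either strand within 250 bases upstream in 2 of 5 members, Tssk1 and Tssk2, and in 1.31% of 32851 RefSeq upstream windows of that length. The full element TGACGTCA was in 0 of 5 members and 1.55% of windows. Its shorter form TGACG (or CGTCA), which the full element contains, was in 1 member, Tssk6, and 17.8% of windows. The sequence GTTGCC (or GGCAAC), a site of RFX factors, was in 0 members and 10.4% of windows. These are matches of letters only, and binding was not measured.

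All 5 kinases were abundant in WT and nearly uncounted in the deletion. Summed over the 5, WT replicates 1, 2 and 3 held 6059, 7485 and 6387 counts, whereas deletion replicates 1, 2 and 3 held 33, 20 and 17. That is 0.0699% to 0.0754% of a WT library and 0.000204% to 0.000367% of a deletion library. All 5 were called lower in the deletion by edgeR's quasi-likelihood test at a false discovery rate of 0.05, and in all 5 every deletion library lay below every WT library. Over the 17038 genes tested, 46.1% were called lower, 38.4% were called higher and 46.7% had every deletion library below every WT library. A call of this kind was therefore common, and the members are described below by the size of their change. Their log2 fold changes ran from -9.80 to -6.82 with a median of -8.06 (-9.13 without deletion replicate 2), against a median of -0.19 over all genes tested. Fewer cells of a type and less RNA per cell cannot be told apart in such bulk samples.

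**Figure D1:**
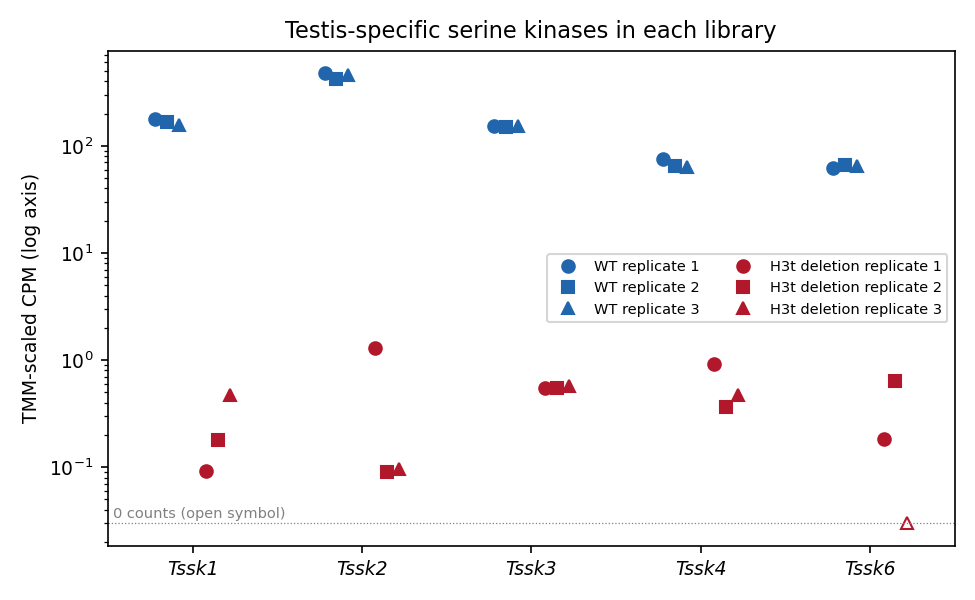
Levels in CPM (counts scaled to library size by TMM, log axis) of the 5 kinases in each of the 6 libraries, with WT in blue and the H3t deletion in red and 1 symbol per replicate. WT values sit between 62.1 and 476 CPM and deletion values between 0 (open symbol, drawn at the dotted line) and 1.29 CPM, and no member overlaps between the groups.

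Tssk2, which with Tssk1 phosphorylates the protein TSKS in spermatids, had the largest fitted loss among the members with all libraries included. WT replicates 1, 2 and 3 held 3058, 3646 and 3271 counts of it, whereas deletion replicates 1, 2 and 3 held 14, 1 and 1. Deletion replicate 1 thus held nearly all that was counted in the deletion. Its level fell from 454 ± 26.8 to 0.492 ± 0.691 CPM (SD, n = 3 each), a 923-fold difference of means. The log2 fold change was -9.80 with a standard error of 0.26 and an adjusted p of 1.87e-14 (edgeR's quasi-likelihood test, adjusted by Benjamini-Hochberg over all genes). Without deletion replicate 1 it was -12.04. Its place depends on single libraries: without deletion replicate 3, Tssk2 was at -9.34 and Tssk1 at -10.10, and without replicate 2 Tssk2, Tssk6 and Tssk1 lay together at -9.29, -9.21 and -9.13.

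Tssk1, the neighbour and closest relative of Tssk2, had 1136, 1423 and 1118 counts in WT and 1, 2 and 5 counts in deletion replicates 1, 2 and 3. Here deletion replicate 3 was the highest of the deletion libraries and replicate 1 the lowest. The level fell from 167 ± 9.67 to 0.250 ± 0.201 CPM (SD, n = 3 each), or 667-fold. The log2 fold change was -9.32 ± 0.21 (standard error; adjusted p = 4.17e-15, edgeR), and -10.10 without deletion replicate 3. The single exon of Tssk1 overlaps annotated exon bases of Dgcr2, which runs on the opposite strand, by 63 bases or 1.70% of the exon length of Tssk1.

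Tssk3 (ENSMUSG00000000411, chr4:129489014-129491022, minus strand, 2 exons) had 985, 1285 and 1092 counts in WT and 6 counts in each of the 3 deletion libraries. Among the members it was the most even one in the deletion. Its level fell from 152 ± 2.46 to 0.556 ± 0.0149 CPM (SD, n = 3 each), or 274-fold, with a log2 fold change of -8.06 ± 0.16 (standard error; adjusted p = 1.62e-15, edgeR). All 6 Leydig cell markers listed rose in the same libraries, against 38.4% of all genes tested. Cyp17a1, Hsd3b1 and Star, which serve testosterone synthesis, rose by 3.16, 3.48 and 2.86 on the log2 scale with TMM scaling. With libraries set to an equal summed level of the Sertoli cell markers, 5 of the 6 were called higher, against 555 of the 17038 genes tested. Insl3, a hormone of Leydig cells, was then at 0.52 in place of 2.81 with an adjusted p of 0.122 (edgeR). Most of that summed level came from 1 gene, Clu. Its mean was 538 CPM in WT, where the sums were 601 to 686 CPM. In the deletion its mean was 2654 CPM and the sums were 3130 to 3228 CPM.

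Tssk4 (ENSMUSG00000007591, chr14:55650184-55652539, plus strand), a kinase of the sperm tail that phosphorylates ODF2, had the smallest loss of the 5. It had 481, 559 and 448 counts in WT and 10, 4 and 5 counts in the deletion. The level fell from 67.7 ± 6.30 to 0.586 ± 0.295 CPM (SD, n = 3 each), or 115-fold, with a log2 fold change of -6.82 ± 0.23 (standard error; adjusted p = 3.30e-13, edgeR). Its annotation lists 7 transcripts, which gene counts do not separate.

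Tssk6 (ENSMUSG00000047654, chr8:69902184-69903518, plus strand, 1 exon), which is needed for normal packing of sperm chromatin, had 399, 572 and 458 counts in WT. Deletion replicates 1, 2 and 3 had 2, 7 and 0 counts, so replicate 2 held most of them. The level fell from 64.4 ± 2.20 to 0.272 ± 0.326 CPM (SD, n = 3 each), or 236-fold, with a log2 fold change of -7.79 ± 0.32 (standard error; adjusted p = 2.41e-12, edgeR). Without deletion replicate 2 it was -9.21. The exon of Tssk6 overlaps exons of Ndufa13, a subunit of respiratory complex I on the opposite strand, by 375 bases or 28.1% of its length. Ndufa13 had 522, 602 and 559 counts in WT and 371, 355 and 417 in the deletion. Whether the counting used strand is not stated, and reads from that stretch cannot be assigned with certainty.

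The annotation holds 1 more gene of the name, Tssk5 (ENSMUSG00000060794, chr15:76371952-76374938, minus strand), which was not among the members. It had 83, 156 and 78 counts in WT and 0 in each deletion library. Its WT level of 14.0 ± 3.70 CPM (SD, n = 3) lies at least 151-fold above that of the deletion, with the floor set at 3 counts over that group, 0.0926 CPM. Its call had an adjusted p of 8.53e-09 (edgeR).

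In WT testis the kinases stood at different levels, which were compared per length. Per kilobase of annotated exon, Tssk2 was highest at 327 ± 19.3 CPM per kilobase, followed by Tssk3 at 119 ± 1.92 (SD, n = 3). Tssk6, Tssk1 and Tssk4 followed at 48.2 ± 1.65, 45.03 ± 2.61 and 39.4 ± 3.67 CPM per kilobase. Within each of the 3 libraries both Tssk6 and Tssk1 stood above Tssk4, although the ranges of Tssk1 and Tssk4 over the libraries overlap. Tssk1 was above Tssk6 in replicate 1 and below it in replicates 2 and 3, so the order of these 2 is not resolved on this scale. Tssk2 made up 56.5% ± 1.21 and Tssk3 20.6% ± 0.569 of the sum of the 5 per kilobase of exon, while Tssk6, Tssk1 and Tssk4 made up 8.35% ± 0.619, 7.79% ± 0.390 and 6.81% ± 0.461 (SD, n = 3).

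The place of Tssk1 in this order rests on the length used. GENCODE gives it 3700 exon bases and RefSeq a span of 1451 bases, whereas its coding sequence has 1098 bases with the stop codon. Per coding kilobase the order was Tssk2 at 421 ± 24.9, Tssk3 at 189 ± 3.05, Tssk1 at 152 ± 8.80, Tssk6 at 78.3 ± 2.68 and Tssk4 at 66.5 ± 6.20 CPM (SD, n = 3). On that scale no neighbours in the order overlapped between libraries. Tssk2 was highest and Tssk3 next on both scales.

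**Figure D2:**
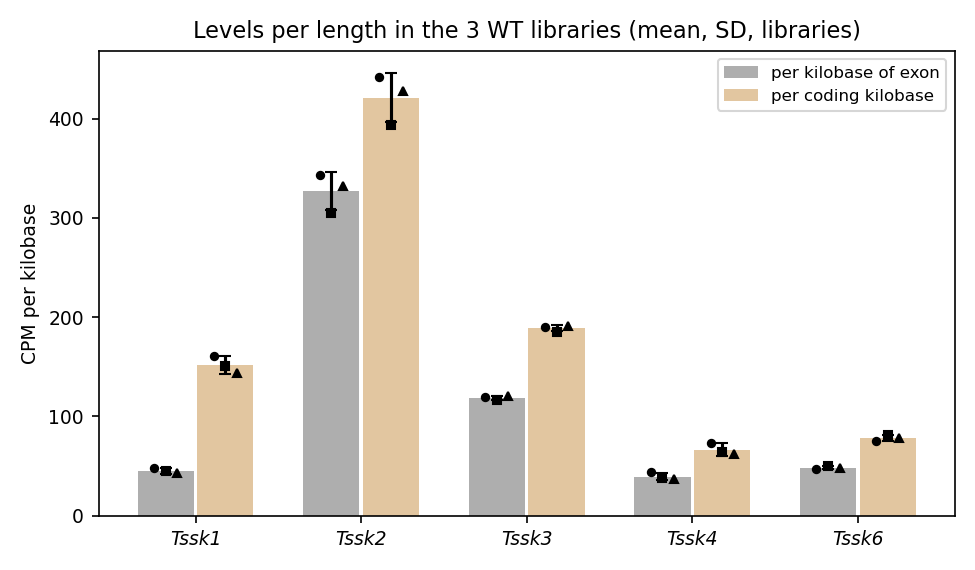
WT levels of the 5 kinases in CPM per kilobase of exon (grey) and per coding kilobase (tan), as means with SD of 3 libraries and 1 symbol per library. Tssk2 stands highest at 327 and 421 CPM per kilobase, and Tssk1 moves from 45.03 to 152 with the length used.

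The share that remained in the deletion was under 1% for each member. With the libraries of a group pooled, Tssk2 kept 0.109% of its WT level (exact 95% Poisson interval 0.0626% to 0.178%) and Tssk1 0.149% (0.0641% to 0.293%). Tssk3 kept 0.365% (0.216% to 0.578%), Tssk6 0.430% (0.196% to 0.818%) and Tssk4 0.872% (0.523% to 1.37%). These rest on 16, 8, 18, 9 and 19 counts in this order, and the intervals cover counting error only. Squared differences between deletion libraries were 4.90 to 6.88 times what counting error gives (chi-square per degree of freedom over genes with at least 10 counts in a pair of libraries). Genes with many counts weigh most in that figure. It was not worked out for genes counted as rarely as the kinases in the deletion. Single libraries also set several of these values. Tssk2 was at 0.0206% without deletion replicate 1, Tssk1 at 0.0823% without replicate 3 and Tssk6 at 0.145% without replicate 2. The intervals therefore give no full order of the members. That of Tssk4 lay above those of Tssk2 and Tssk1, and those of Tssk3 and Tssk6 lay above that of Tssk2. Without deletion replicate 2 those of Tssk3 and Tssk6 overlapped that of Tssk2. Without deletion replicate 1 that of Tssk4 overlapped that of Tssk1. Tssk4 also stayed the highest member without deletion replicate 1, 2 or 3, at 0.621%, 1.04% and 0.950%.

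**Figure D3:**
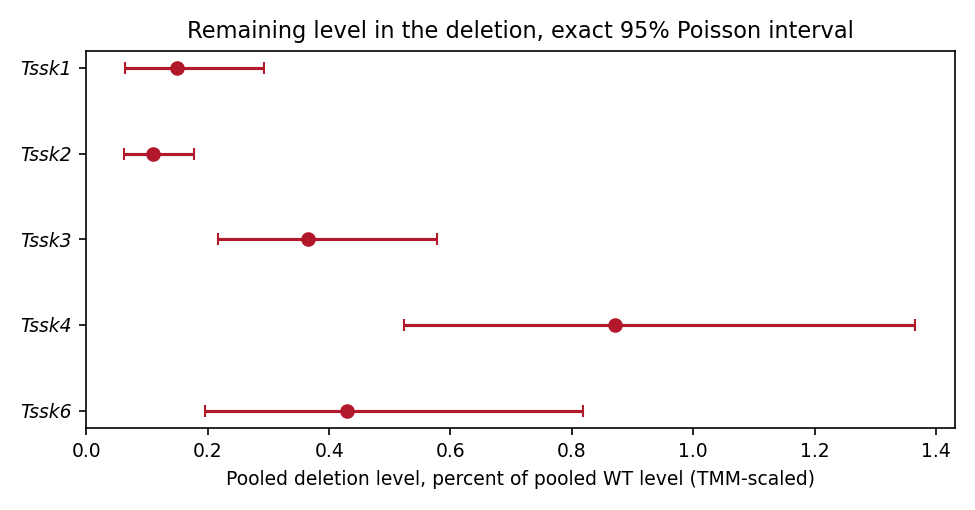
Level of each kinase in the pooled deletion libraries as percent of its level in the pooled WT libraries, with exact 95% Poisson intervals that cover counting error only. The values run from 0.109% for Tssk2 to 0.872% for Tssk4, and leaving out 1 deletion library moves those of Tssk1, Tssk2 and Tssk6 by over 1.5 times.

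Ratios of 2 members within a library need no scaling factor, and all 10 pairs were compared on log2 counts with 0.5 added. WT replicates 1, 2 and 3 had log2 ratios of Tssk2 to Tssk4 of 2.67, 2.70 and 2.87, while deletion replicates 1, 2 and 3 had 0.47, -1.58 and -1.87. The mean moved by -3.74, from 2.75 to -0.998. That of Tssk2 to Tssk3 went from 1.57 ± 0.07 to -1.02 ± 1.89, and that of Tssk1 to Tssk4 from 1.30 ± 0.06 to -1.22 ± 1.44 (SD, n = 3). The deletion ratios rest on 0 to 14 counts of a member per library, and the 10 pairs reuse the same 5 genes. The groups did not overlap in 6 of the 10 pairs. How often pairs of other genes behave so was not worked out. Each of the 6 had p = 0.1 by a two-sided exact permutation test, the lowest value that 3 against 3 allows, and 0.167 after adjustment over the 10 pairs. Tssk1 to Tssk2 went from -1.44 ± 0.10 to -0.22 ± 2.70 (SD, n = 3), with overlap and an exact permutation p of 0.4. None of the pairs passes 0.05, which the design cannot reach.

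Genes of proteins that work with the TSSKs mostly fell too. Of 8 listed partners and substrates, all tested, 7 fell and 1 rose. Over all genes tested, 46.1% fell and 38.4% rose. The median log2 fold change of the 8 was -4.62. Tsks, the substrate of TSSK1 and TSSK2, had 2976, 3792 and 3224 counts in WT and 16, 3 and 0 in the deletion, with replicate 1 highest as for Tssk2. Its log2 fold change was -9.56 ± 0.27 (standard error; adjusted p = 3.56e-14, edgeR), or -11.52 without deletion replicate 1. Spag16, a central-pair protein of the sperm axoneme that binds TSSK2, was at -8.18, and Tsacc, a co-chaperone that activates TSSK6, at -6.70. Odf2, an outer dense fibre protein of the tail and a substrate of TSSK4, fell from 8731 ± 172 to 108.2 ± 21.04 CPM (SD, n = 3 each), a log2 fold change of -6.33.

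The partners with roles in many cell types fell less or rose. Hsp90aa1 and Hsp90ab1 encode the chaperone HSP90, which TSSKs need to be stable. Hsp90aa1 fell from 1375 ± 30.2 to 185 ± 3.90 CPM and Hsp90ab1 rose from 708 ± 21.3 to 1600 ± 56.2 CPM (SD, n = 3 each). Pdpk1, a kinase reported to activate TSSK3, was at -2.01, and Ppp1cc, a phosphatase subunit with a testis form, at -1.93. With libraries set to an equal level of the Sertoli cell markers, Hsp90ab1 was at -1.11 in place of 1.18. At that level 0 of the 8 were called higher, against 555 of the 17038 genes tested.

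Related kinases outside the family had calls in both directions, in shares near those of all genes (46.1% lower and 38.4% higher). Of 18 AMPK-related kinases, 9 fell, 6 rose and 3 were not called, with a median log2 fold change of -0.27. The balance turned with scaling: 6 were lower and 8 higher with upper-quartile scaling, and 6 lower and 9 higher with no scaling factor, with medians of 0.27 and 0.37. Over all 17038 genes tested, 6609 were lower and 8111 higher with the former, and 6425 lower and 8378 higher with the latter. Stk11, which activates AMPK, Sik3 and Mark2 were at -0.71, -1.03 and -0.56, and Mark4, Snrk and Mark3 at 2.04, 0.78 and 0.29. The calls of Stk11 and Mark2 were lost with upper-quartile scaling and with no scaling factor, Mark2 at 0.08 with the latter. That of Mark3 was lost with median-of-ratios scaling, with DESeq2 and without WT replicate 3 (adjusted p = 0.237, 0.266 and 0.0559). At equal Sertoli marker level 14 were lower and 0 higher, Mark3 among the lower. Of all 17038 genes tested, 13406 were lower and 555 higher at that level.

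Kinases of germ cells outside these families fell. All 8 listed were called lower, against 46.1% of all genes tested. Their log2 fold changes ran from -7.59 to -1.65 with a median of -5.99. Stk33, needed for the sperm tail, and Mak, a male germ cell kinase, were at -7.16 and -7.59, and Stk31 at -2.79. Of the sperm motility kinases, relatives of the AMPK family in mice, 5 of 6 listed were in the table and 2 passed the filter. Smok2b had 57, 65 and 74 counts in WT and 1, 0 and 0 in the deletion, which is 287-fold lower with a counting interval of 50.9 to 11399. Smok2a had 26, 39 and 37 counts in WT and 0 in each deletion library, at least 49.7-fold lower.

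**Figure D4:**
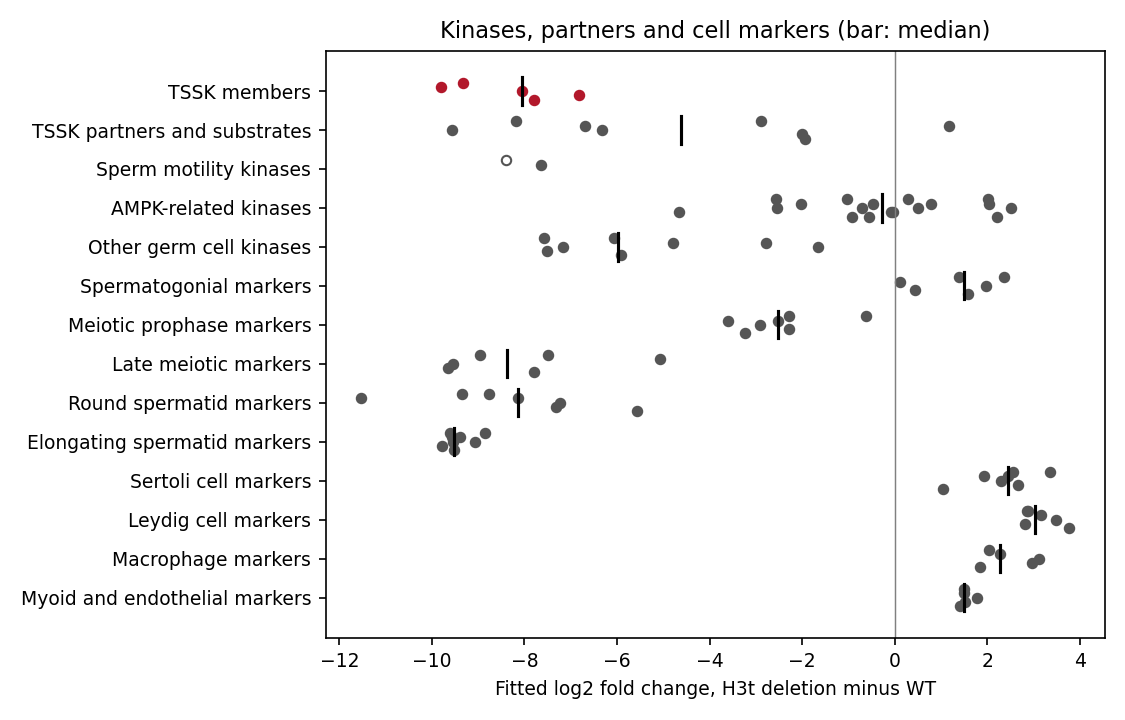
Fitted log2 fold changes, deletion minus WT, of the tested genes in each list, 1 point per gene, with a black bar at the median of lists with over 2 tested genes and an open point for a gene at 0 counts in the deletion. The 5 kinases (red) lie between -9.80 and -6.82, in the range of late meiotic and spermatid markers, and somatic markers lie above 0 with TMM scaling.

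Markers of late meiotic cells and spermatids fell too. The summed level of 8 elongating spermatid markers was 21141 to 22989 CPM in WT and 5.72 to 66.0 CPM in the deletion, and that of 7 round spermatid markers 670 to 921 and 5.34 to 8.23 CPM. Against 46.1% of all genes tested, all members of both lists were called lower. Their median log2 fold changes were -9.53 and -8.13, and all 6 late meiotic markers were called lower with a median of -8.38. Without deletion replicate 1 these medians were -10.51, -9.55 and -8.24, and that of the 5 kinases was -8.05 in place of -8.06. Without deletion replicate 2 they were -9.37, -7.69 and -8.43, beside -9.13 for the kinases. Acr, the acrosomal protease and a round spermatid marker, had a log2 fold change of -8.76, or -9.55 without deletion replicate 1. That of Spaca1, a protein of the acrosomal membrane, was -5.57. Ybx2, a late meiotic marker whose protein binds stored germ cell mRNA, stood at -7.49. Acrv1, a protein of the acrosome, had 1 count in deletion replicate 1 and 0 in replicates 2 and 3. Prm2, a protamine, had 268, 82 and 24 counts in deletion replicates 1, 2 and 3, the same order as Tsks. Tssk1 had the reverse order, with 1, 2 and 5 counts. The part of late meiotic cells and spermatids in the loss of the kinases was not tested.

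Earlier stages kept more of their RNA. The calls below stand beside 46.1% lower and 38.4% higher over all genes tested. All 7 meiotic prophase markers were called lower with a median of -2.53, among them Smc1b, a cohesin subunit of meiosis, at -2.91. Dmc1, the member that fell least, was at -0.63, or 0.01 with no scaling factor, and its call was also lost with upper-quartile scaling and without WT replicate 3. Of 6 spermatogonial markers 4 rose, with Zbtb16 and Dmrt1 at 2.36 and 1.39. The other 2, Gfra1 and Sohlh1, were not called, at 0.12 and 0.43. At equal Sertoli marker level 4 of the 6 fell and 0 rose, where 13406 of the 17038 genes tested fell and 555 rose. All 7 Sertoli, 5 macrophage and 5 myoid and endothelial markers rose with TMM scaling. Their summed levels were 601 to 686, 85.7 to 95.1 and 176 to 206 CPM in WT and 3130 to 3228, 385 to 444 and 530 to 553 CPM in the deletion. That of the 6 Leydig markers was 285 to 322 and 2468 to 2814 CPM.

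Genes beside the kinases in the genome did not all share their loss. Of 11 overlapping or nearest protein-coding genes other than members, 8 were tested, of which 5 fell, 2 rose and 1 was not called. With 46.1% of all genes called lower and 38.4% higher, such a count does not set the neighbours apart. Fam229a, which starts 167 bases from Tssk3 and runs the other way, had 239, 284 and 222 counts in WT and 4, 2 and 0 in the deletion. Its log2 fold change was -7.41 ± 0.36 (standard error; adjusted p = 1.99e-11, edgeR), or -8.29 without deletion replicate 1. On the other side of Tssk3, Bsdc1 was at -1.07.

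Around Tssk1 and Tssk2 the losses were smaller than theirs. Dgcr2, which contains Tssk1 on the opposite strand and starts 74 bases from Tssk2, was at -0.65 and lost its call with upper-quartile scaling and with no scaling factor, at -0.11 and -0.01. Ess2, 684 bases beyond Tssk2, was at -1.31. The neighbours of Tssk4, Tm9sf1 and Mdp1, lie 6377 and 5339 bases from its GENCODE span and rose by 1.34 and 2.50. RefSeq gives Tssk4 a span of 8889 bases, by which the gap to Mdp1 does not hold. At equal Sertoli marker level Tm9sf1 was at -0.95 and Mdp1 at 0.23 and not called. Beside Tssk6, Ndufa13 was at -1.12 and Gatad2a at 0.22 and not called.

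Genes with the pattern most like each kinase were ranked by Pearson's r of log2 CPM over the 6 libraries, among 16825 genes averaging 1 CPM or more. The points share 2 groups that lie far apart, so high values are common: 17.0% of genes reached r of 0.99 with Tssk1, 10.3% with Tssk2, 22.5% with Tssk3, 20.5% with Tssk4 and 6.44% with Tssk6. The 3 highest were Ccdc74a, 1700012A03Rik and Dnajb1 for Tssk1 and Lrrc34, Erich6 and Phf8-ps for Tssk2. They were Ubl4b, 4932411K12Rik and Kif2a for Tssk3, St6galnac2, 2810408I11Rik and Cfap69 for Tssk4, and Prps1l1, 1700029M20Rik and Gm48079 for Tssk6. The lowest of these 15 values of r was 0.9998. Ranking by r takes no account of the size of the loss: Kif2a went from 650 to 74.5 CPM and Dnajb1 from 212 to 20.8 CPM, far less than the kinases they rank beside.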

How the data were processed

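Per the labels' protocols, RNA of testis cryosections went through a SMART-Seq Stranded kit. The authors deposited raw counts per Ensembl gene, made with Trim Galore, HISAT2 on GRCm38 and featureCounts, per the submitters' processing notes. Tool versions, annotation release and the counting's use of strand were not given. Libraries held 8037826 to 10702930 counts, and 1 count was worth 0.0904 to 0.156 CPM. Only a mouse number in the labels speaks for separate animals, and p-values cover the spread between samples, part of which may be technical.

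Counts were analysed with edgeR 4.0.16 in R 4.3.3: filterByExpr left 17038 genes, scaling was by TMM, and the quasi-likelihood test compared the deletion with WT at a false discovery rate of 0.05 (Benjamini-Hochberg over all genes tested). The steps were also run on simulated data in which 200 genes changed. Those changes were far fewer than in these data and far smaller than those of the kinases. That run therefore does not test the steps under shifts like those seen here. CPM values are TMM-scaled (WT factors 0.794 to 0.806, deletion factors 1.21 to 1.27). Log2 CPM for the correlations used a prior count of 2. Standard errors of log2 fold changes were derived, as the absolute log2 fold change over the square root of the test's F statistic. They do not cover what single libraries change, such as the move of Tssk2 from -9.80 to -12.04 without deletion replicate 1. Gene positions, exons and transcripts came from GENCODE M21, which holds all 54100 genes of the table, upstream sequences from RefSeq (GRCm38.p6, all 5 members matched), and coding alignments from Biopython 1.88.

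The members and lists were chosen with earlier results of these data known. Named genes were the members, other Tssk genes, H3f4, all partners, up to 3 called members of each other list per direction by mean CPM, genomic neighbours and the 3 genes most like each member. Dmc1, Insl3, Gfra1 and Sohlh1 were named after their values were seen.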

Additional observations from a re-analysis of the deposited data

How the results depend on the processing

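The 5 kinases kept their direction and their call under all 12 alternatives (median-of-ratios, upper-quartile, no scaling factor, equal Sertoli marker level, no filter, DESeq2 1.42.0 and each library left out in turn), with adjusted p-values of at most 2.53e-09. Log2 fold changes of Tssk1, Tssk2, Tssk3, Tssk4 and Tssk6 ran from -11.58, -12.08, -10.34, -9.09 and -10.04 at equal Sertoli marker level to -8.69, -9.17, -7.43, -6.18 and -7.16 with no scaling factor. Leaving out 1 library gave -10.10 to -8.93, -12.04 to -9.29, -8.09 to -8.03, -7.28 to -6.55 and -9.21 to -7.24. Over all genes, 6542 were higher and 7861 lower, or 45.4% higher among the calls, against 56.6% with no scaling factor. At equal Sertoli marker level 555 were higher and 13406 lower. At that level 0 partners were higher, 14 AMPK-related kinases lower and 0 higher, 4 spermatogonial markers lower and 0 higher, 2 Sertoli markers lower and 0 higher, 1 macrophage marker lower and 2 higher, 5 Leydig markers higher and 0 lower, and 5 myoid and endothelial markers lower and 0 higher. The median log2 fold change of the spermatogonial list turned to -0.79 there and that of the myoid and endothelial list to -0.79, and the AMPK-related median turned to 0.27 with upper-quartile scaling and 0.37 with no scaling factor, the cause of which was not tested. List medians and remaining levels under the alternatives were added after seeing the data. The sperm motility kinases had 4 lower without a filter and 4 with DESeq2, where more genes are tested. Shares of the WT sum without division by length were 18.4%, 50.1%, 16.8%, 7.47% and 7.13% for Tssk1, Tssk2, Tssk3, Tssk4 and Tssk6. Per coding kilobase, a scale added after seeing the data, those of Tssk1, Tssk2 and Tssk4 moved to 16.7%, 46.4% and 7.33%. No paired analysis was possible because the labels give the groups no shared replicate numbers. At 8 to 19 counts per kinase in the deletion, depth limits how finely the remaining levels can be ranked.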
